A study of Saccharomyces cerevisiae with 7 samples.

Results

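The genes described here encode assembly factors of the large (60S) ribosomal subunit of the budding yeast Saccharomyces cerevisiae. They are the nucleolar, nuclear and export proteins that build the particle without staying in it. The 50 factors were taken by gene symbol, and all 50 were found among the 5470 genes of the arrays, on 51 spots, since TIF6 had 2. Of these, 45 had a value on all 7 arrays and 5 had at least 1 blank. Each array compared total RNA of a yeast culture in 1 channel with a common reference in the other, the culture at 0.14 OD with 19 g/L glucose. The culture was sampled at 0 h (0.14 OD, 19 g/L glucose), 9.5 h (0.46 OD, 18.7 g/L), 11.5 h (0.8 OD, 17.6 g/L), 13.5 h (1.8 OD, 14 g/L), 15.5 h (3.7 OD, 7.5 g/L), 18.5 h (6.9 OD, 0.2 g/L) and 20.5 h (7.3 OD, 0 g/L). There was 1 array for each time and no replicate, and the labels give neither the strain nor the number of flasks.

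A ribosome is assembled in the nucleolus, where a long precursor RNA is cut, modified and folded around ribosomal proteins. Assembly factors join and leave the growing 60S particle in a set order, helicases and GTPases drive its rearrangements, and the last factors carry it through the nuclear pore and are released in the cytoplasm. In yeast the genes for these factors are known to be expressed together in growing cells and repressed together when nutrients run short, a group often called the ribosome biogenesis regulon. Glucose exhaustion, the diauxic shift, is one such change, in which cells pass from fermenting glucose to respiring ethanol.

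Each value is a log2 ratio, culture over reference, after the median of its array was set to 0. A value of -1 is 2-fold below the reference. That the ratio runs as culture over reference is likely from the order of channels in the labels, which do not name the dyes. The 0 h array, which carried the same culture label in both channels, gave the 50 factors a median of 0.15, between -0.12 and 0.52, where all genes had a median of 0.01. Spots that carry the same gene scattered least at 13.5 h (SD 0.19) and most at 18.5 h (SD 0.45). A ratio centred in this way reports a gene relative to the median of its array, and a fall in all RNA of the cells would not be seen. As deposited, the array medians were 0.216 at 18.5 h and 0.185 at 20.5 h, and between -0.033 and 0.027 on the earlier arrays.

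With each array centred on its median, the 60S assembly factors came down in a pair of stages. The first came while most of the glucose was still present, and the second when it was gone. Over the 3 early times, 0, 9.5 and 11.5 h, their median was 0.15, 0.04 and 0.03. On the 13.5 h and 15.5 h arrays the median was -0.605 and -0.63, and on the 18.5 h and 20.5 h arrays -1.51 and -1.47. At 13.5 h all 49 factors with a value lay below 0, against 49.4% of all genes. The 3 early arrays overlapped one another, the middle arrays lay close together, and the late arrays were lowest. After quantile normalization, which gives every array the same spread, middle minus early had a median of -0.91 over the factors. Late minus all earlier arrays had one of -0.61 there. Late minus middle was not computed in that setting, so the second stage is shown for centred values only.

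**Figure D1:**
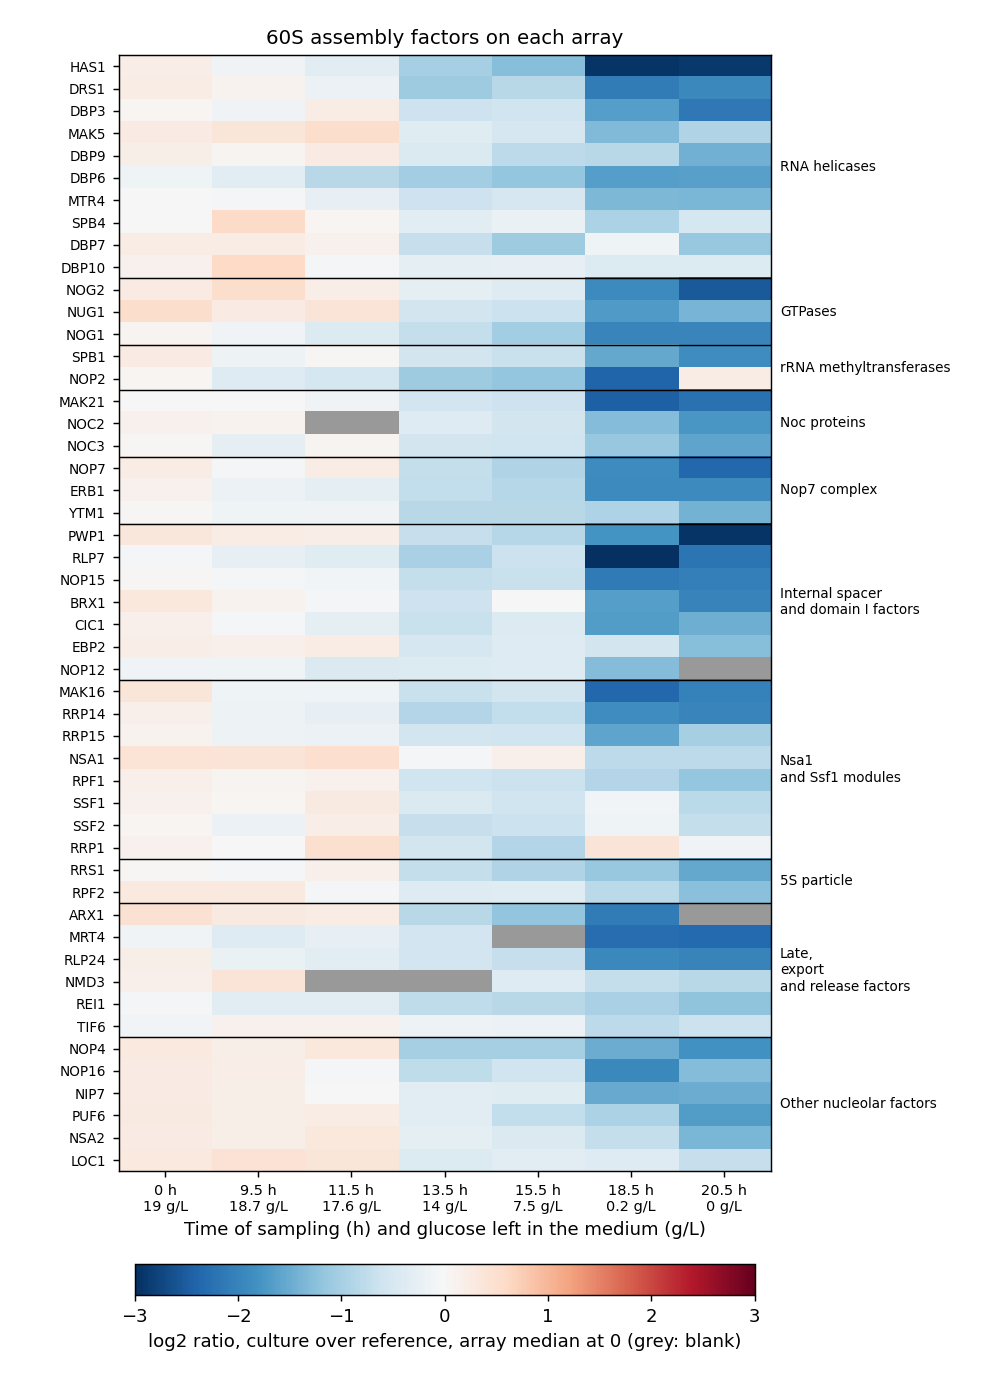
Log2 ratio of culture over reference for each of the 50 factors (rows, grouped by role) on the 7 arrays (columns, with the glucose left in g/L); blue is below the reference, red above, and grey marks a blank. The columns turn blue at 13.5 h and darken at 18.5 h, and the exceptions at 18.5 h include RRP1 at 0.38, SSF1 at -0.09, SSF2 at -0.13 and DBP7 at -0.12.

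The first comparison asked which factors changed as glucose was consumed. Each gene was regressed on the share of glucose used over the 7 arrays (limma), so that the fitted change is that from 19 to 0 g/L, and the threshold was an adjusted p under 0.05 (Benjamini-Hochberg over all 4807 genes with no blank). Of the 45 factors tested 39 fell, 0 rose and 6 did not pass, where 19.0% of all genes tested fell. The median fitted change of the factors was -1.47, against 0.02 for all genes. All 45 fitted changes were below 0, from -2.84 for HAS1 to -0.12 for RRP1, where 2342 of all 4807 genes were. After quantile normalization between arrays 16 factors fell, where 7.86% of all genes fell, and the median of the factors was -0.96. The p-values measure scatter about a line over the 7 times of one course, not the spread between cultures, and neighbouring times need not be independent. Time, OD, glucose and array lot change together, so they cannot be told apart.

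**Figure D2:**
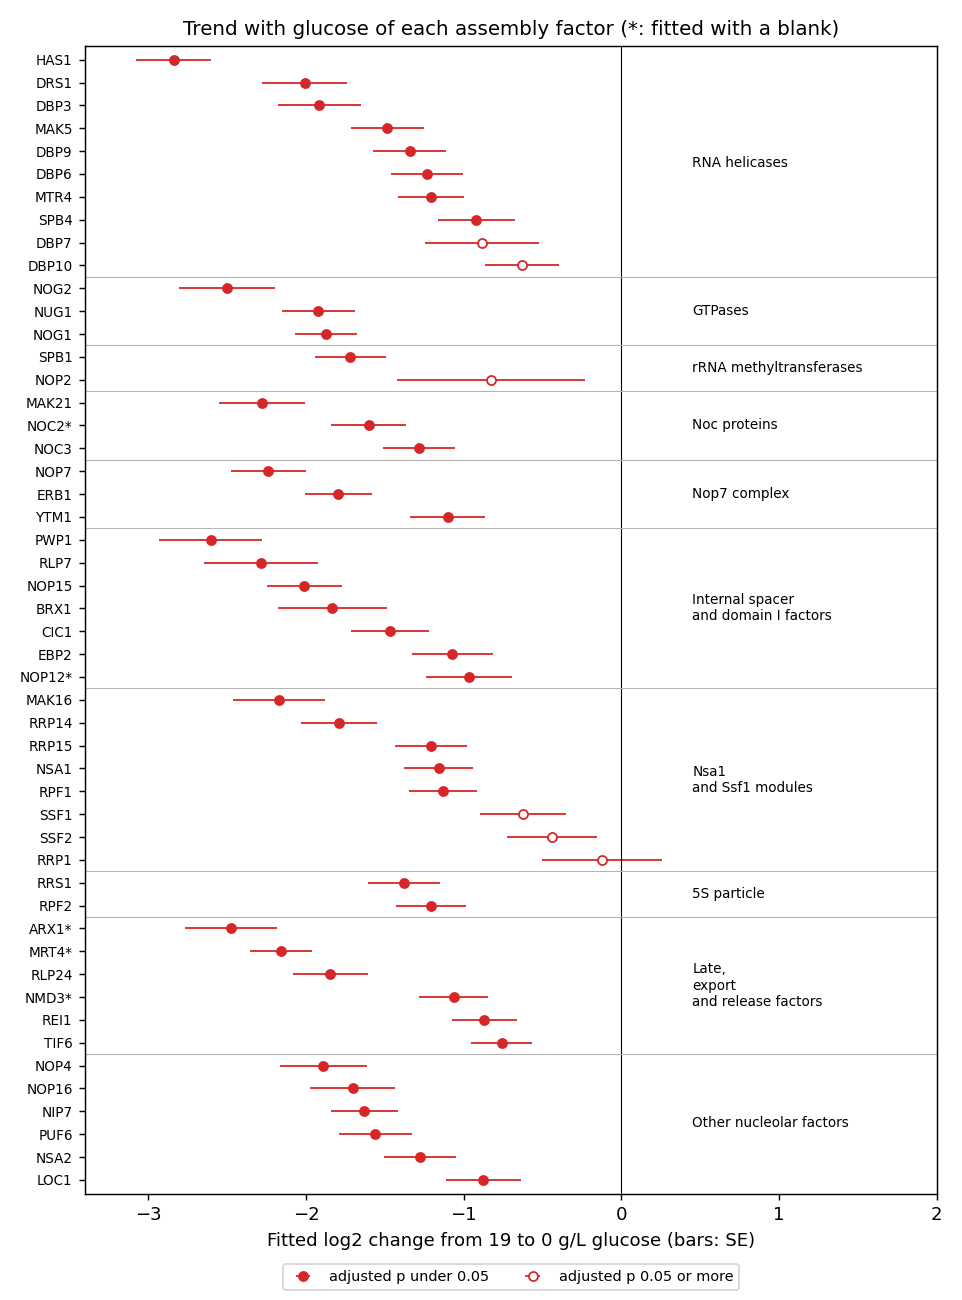
Fitted change (log2) between full and exhausted glucose, 19 and 0 g/L, for each factor, grouped by role, with bars of 1 SE; filled points passed at an adjusted p under 0.05, and a star marks a factor fitted with a blank. All points lie left of 0, and open points mark DBP7, DBP10, NOP2, SSF1, SSF2 and RRP1.

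The second comparison set the late arrays, 18.5 h and 20.5 h with at most 0.2 g/L glucose, against the 5 earlier ones with at least 7.5 g/L. Of the 45 factors 36 fell and 0 rose (limma, adjusted over all genes), where 20.6% of all genes fell. The median difference was -1.17, against 0.01 for all genes. In 39 of 45 factors both late values lay below all 5 earlier ones, as they did in 27.5% of all genes. The 6 others were NOP2, DBP7, SSF1, SSF2, RRP1 and LOC1. After quantile normalization 0 of 45 factors passed this test, where 3.02% of all genes still fell, and the median of the factors was -0.61. At an unadjusted p under 0.05, 13 factors were then lower, where 12.2% of all genes were. At least 2-fold below the reference were 32 of 50 factors at 18.5 h, where 11.5% of all genes were, and 37 of 48 at 20.5 h, where 11.5% again were.

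The middle arrays, 13.5 h and 15.5 h with 14 and 7.5 g/L glucose, were then set against the 0 h, 9.5 h and 11.5 h arrays, which had at least 17.6 g/L. In 44 of the 45 factors both middle values lay below all 3 early values, as in 18.1% of all genes. The exception was BRX1, with middle values of -0.62 and -0.001, against a lowest early value of -0.03. The middle mean minus the early mean had a median of -0.68 over the 45 factors, from -1.25 for NOP4 to -0.23 for TIF6. All 45 differences were below 0. Over all genes with no blank the median was 0.02, and 2289 of 4807 differences were below 0. Few factors were yet 2-fold below the reference. At 13.5 h these were DRS1, NOP2 and DBP6, 3 of 49 factors, where 0.577% of all genes were. At 15.5 h they were HAS1, ARX1, DBP6, NOP2, DBP7 and NOG1, 6 of 49, where 2.04% of all genes were. Measured from the 0 h array in place of the reference, 10 factors were 2-fold lower at 13.5 h, where 1.27% of all genes were, and 13 at 15.5 h, where 2.68% were.

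Tests of this stage rested on 5 arrays. A test of the middle against the early arrays, chosen after the data were seen, called 13 of 45 factors lower and 0 higher, where 1.58% of all genes were called lower (limma, adjusted over all genes). The 13 were the helicases MAK5, DBP7, DRS1 and HAS1, the GTPase NUG1, and NOP4, NOP7, NOP16, RPF1, RRS1, YTM1, PWP1 and LOC1. The count was 0 with any of the 0 h, 9.5 h, 13.5 h and 15.5 h arrays left out, where 0 of all 4807 genes passed as lower, and 30 with the 11.5 h array left out, where 5.35% of all genes did. With 1 array left out the median difference of the factors stayed between -0.72 and -0.63. At an unadjusted p under 0.05 over all 5 arrays, 42 of 45 factors were lower, where 10.8% of all genes were. After quantile normalization the count was 0 of 45 factors and 0 of all genes, with a median difference of -0.91 for the factors. There 40 factors were lower at an unadjusted p under 0.05, where 9.78% of all genes were. A straight line in glucose over the same 5 arrays called 6 factors lower, NOG1, DBP7, DBP9, HAS1, PWP1 and PUF6, where 1.29% of all genes were. The median fitted change of the factors on that line, scaled from 19 to 7.5 g/L glucose, was -0.79. Without the 0 h, 9.5 h or 15.5 h array 0 factors passed, where at most 0.125% of all genes were lower. The medians of the factors were then -0.70, -0.80 and -1.65. The last extends the line to 7.5 g/L from arrays that reach only 14 g/L, so it is not comparable with the others. After quantile normalization 0 factors and 0 of all genes passed, with a median of -1.01 for the factors.

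Between the middle and the late arrays the factors parted. The late mean minus the middle mean had a median of -0.79 but ran from -1.87 for NOG2 to 0.85 for RRP1. It was below 0 in 40 of 45 factors and above 0 in RRP1, DBP7, SSF1, SSF2 and NOP2. Over all genes with no blank its median was -0.0035, and it was below 0 in 2410 of 4807. Late minus middle was not computed after quantile normalization. Within the late pair, 20.5 h minus 18.5 h had a median of -0.12 and ran from -1.16 for PWP1 to 2.63 for NOP2. Of the 13 factors lower in the middle arrays, 10 were also lower in the late arrays. That share is near that of all the factors, 36 of 45. The other 3 of the 13 (DBP7, YTM1 and LOC1) did not pass in the late comparison, whose earlier arrays include the middle ones.

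**Figure D3:**
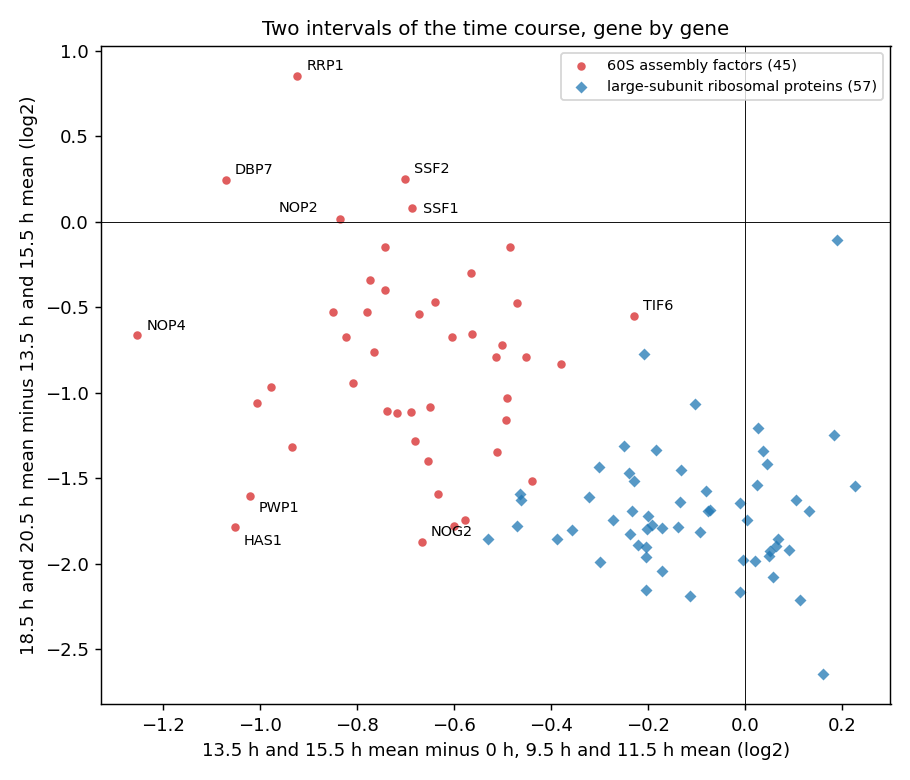
For each gene with no blank, the 13.5 h and 15.5 h mean minus the mean of the 3 early arrays (horizontal, log2) is plotted against the 18.5 h and 20.5 h mean minus the 13.5 h and 15.5 h mean (vertical, log2), for the 45 assembly factors (circles) and 57 large-subunit ribosomal protein genes (diamonds). All 45 factors lie left of 0 and spread from -1.87 to 0.85 vertically. The ribosomal protein genes run from -0.53 to 0.23 horizontally, overlapping the factors in part, and all lie below 0 vertically.

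The RNA helicases unwind RNA within the precursor particle. Of 10 tested 8 fell with glucose, with a median fitted change of -1.29. HAS1, which acts in both subunits' pathways, stood at 0.19, -0.11, -0.35, -0.995, -1.29, -2.95 and -2.90 from 0 h to 20.5 h. Every later array was below 0 h, the late pair lay close together, and the fitted change of -2.84 ± 0.24 (SE, adjusted p = 9.01e-05) was the largest fall among the 45 factors. DRS1 was at 0.21, 0.12, -0.17, -1.08, -0.83, -2.09 and -1.94, lowest in the late pair, and fell by 2.01 ± 0.27 (adjusted p = 0.000455). DBP3, DBP6, DBP9, MAK5, MTR4 and SPB4 fell by between 0.92 and 1.92 on the log2 scale. SPB4 was the weakest of them, and it no longer passed when the 9.5 h array (adjusted p = 0.0528) or that of 18.5 h (0.0906) was left out. After quantile normalization DRS1, DBP6, DBP9, MTR4 and SPB4 no longer passed, and DBP6 had a fitted change of -0.22 (adjusted p = 0.742).

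DBP7 and DBP10 were the helicases that did not pass. DBP7 was at 0.23, 0.22, 0.14, -0.69, -1.06, -0.12 and -1.14, so its 18.5 h value lay above both middle values while its 20.5 h value lay below them. Its fitted change was -0.89 ± 0.36 (adjusted p = 0.0763), and without the 18.5 h array it was -1.49 (adjusted p = 0.00887). DBP10 was at 0.13, 0.59, -0.05, -0.28, -0.24, -0.40 and -0.41, a narrow range apart from 9.5 h, with a fitted change of -0.63 ± 0.23 (adjusted p = 0.0535). It passed, at -0.67 (adjusted p = 0.0440), when arrays were centred on the genes outside the ribosome lists.

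The 3 GTPases, switches that time release and remodelling steps, all fell. NOG2 was at 0.25, 0.53, 0.20, -0.30, -0.38, -1.90 and -2.52, and NUG1 was at 0.52, 0.26, 0.39, -0.54, -0.63, -1.70 and -1.40. Both were above the reference on all 3 early arrays and below it on all later ones. NOG2 fell by 2.50 ± 0.30 (adjusted p = 0.000292) and NUG1 by 1.92 ± 0.23 (adjusted p = 0.000292). NOG1 fell by 1.87. The NOG2 gene contains the small nucleolar RNA gene SNR191 within it in the RefSeq annotation, over 274 bases, and whether the spot reports that RNA was not tested.

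The methyltransferases modify the large-subunit rRNA. SPB1, which methylates a ribose in the peptidyl transferase centre, was at 0.25, -0.16, 0.04, -0.55, -0.66, -1.53 and -1.85, lowest in the late arrays. It fell by 1.72 ± 0.22 (adjusted p = 0.000384). NOP2, which methylates a cytosine, was at 0.05, -0.38, -0.52, -1.08, -1.15, -2.41 and 0.22. It was the only factor to read above the reference at 20.5 h, after one of the lower values at 18.5 h. Its fitted change was -0.83 ± 0.59 (adjusted p = 0.287), 0.16 without the 18.5 h array (adjusted p = 0.852) and -2.07 without the 20.5 h array (adjusted p = 0.00204). Its value rests on 1 spot on each array.

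The Noc proteins and the Nop7 complex act on early nucleolar particles. MAK21, also called Noc1, was at 0.01, 0.02, -0.11, -0.58, -0.63, -2.45 and -2.24. NOC3 was at 0.03, -0.29, 0.08, -0.54, -0.61, -1.14 and -1.59. Their middle values were nearly alike and MAK21 was lower late, with fitted changes of -2.28 ± 0.27 (adjusted p = 0.00027) for MAK21 and -1.28 ± 0.23 (adjusted p = 0.00177) for NOC3. NOC2 lacked an 11.5 h value and was at 0.13, 0.10, -0.39, -0.55, -1.31 and -1.74 on the other arrays. Fitted over the arrays it had, among the 5456 genes with at least 5 values, it fell by 1.60 ± 0.23 (adjusted p = 0.00103).

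All 3 members of the Nop7 complex fell. NOP7 was at 0.21, -0.03, 0.21, -0.71, -0.90, -1.89 and -2.36. ERB1 was at 0.13, -0.18, -0.29, -0.74, -0.86, -1.90 and -1.92. For both, the middle values lay between the early and the late ones with no overlap. NOP7 had a fitted change of -2.24 ± 0.24 (adjusted p = 0.000193) and ERB1 one of -1.80 ± 0.21 (adjusted p = 0.00026). YTM1, which binds ERB1, fell by 1.10, but its late arrays against the earlier ones gave -0.80 ± 0.29 (adjusted p = 0.05002, just over the threshold).

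The factors of the second internal spacer and of the first rRNA domain act on a stretch of the precursor that is cut away and on the rRNA folds next to it. All 6 tested fell, with a median of -1.92. PWP1 was at 0.33, 0.23, 0.19, -0.69, -0.85, -1.79 and -2.95, and RLP7, a relative of ribosomal protein L7, was at -0.03, -0.24, -0.36, -0.98, -0.64, -2.99 and -2.19. PWP1 was lowest at 20.5 h and RLP7 at 18.5 h. Over the course PWP1 changed by -2.61 ± 0.33 (adjusted p = 0.000337) and RLP7 by -2.28 ± 0.36 (adjusted p = 0.000975). NOP15, BRX1, CIC1 and EBP2 fell, with fitted changes between -2.01 and -1.07, and the call of EBP2 was lost without the 20.5 h array (-0.77, adjusted p = 0.0566). NOP12 lacked a 20.5 h value and was at -0.11, -0.14, -0.43, -0.40, -0.39 and -1.30 on the others, so its middle values did not lie below its 11.5 h value. Over those 6 arrays it fell by 0.96 ± 0.27 (adjusted p = 0.022).

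The Nsa1 and Ssf1 modules, which organise early to middle nucleolar particles, held 3 of the 6 factors that did not pass. Of the 8, 5 fell, and the median of the 8 was -1.15. MAK16 was at 0.35, -0.14, -0.12, -0.66, -0.54, -2.35 and -2.03, and RRP14 was at 0.14, -0.14, -0.26, -0.87, -0.73, -1.86 and -1.98. Both were lowest in the late pair, with fitted changes of -2.17 ± 0.29 for MAK16 (adjusted p = 0.000455) and -1.79 ± 0.24 for RRP14 (adjusted p = 0.000455). NSA1, RPF1 and RRP15 fell by between 1.13 and 1.21, and NSA1 was the one factor above the reference at 15.5 h, at 0.14.

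The other 3 of these modules were low in the middle of the course and higher at 18.5 h. RRP1 was at 0.14, -0.01, 0.49, -0.55, -0.88, 0.38 and -0.10, with both late values above both middle ones. SSF1 was at 0.14, 0.07, 0.28, -0.45, -0.60, -0.09 and -0.80. SSF2 was at 0.07, -0.18, 0.20, -0.70, -0.64, -0.13 and -0.70. SSF1 and SSF2 are close copies of each other, so their spots may share RNA and their values are uncertain as separate observations. In both, the 18.5 h value lay above the middle values and the 20.5 h value did not. The fitted changes were -0.12 ± 0.38 for RRP1 (adjusted p = 0.816), -0.62 ± 0.27 for SSF1 (adjusted p = 0.0932) and -0.44 ± 0.29 for SSF2 (adjusted p = 0.243). Without the 18.5 h array SSF1 passed, at -1.01 (adjusted p = 0.0189). The 18.5 h array also had the widest scatter between spots of one gene, and its part in these values was not tested.

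RPF2 and RRS1 bring the 5S rRNA with its proteins into the particle, and both fell. RPF2 was at 0.30, 0.30, -0.04, -0.40, -0.36, -0.82 and -1.25. RRS1 was at 0.04, -0.06, 0.16, -0.71, -0.90, -1.13 and -1.52. In both genes the 20.5 h value was the lowest and no middle value overlapped an early one. RPF2 had a fitted change of -1.21 ± 0.22 (adjusted p = 0.00218) and RRS1 one of -1.38 ± 0.23 (adjusted p = 0.00117).

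The late, export and release factors act last, in the nucleus, at the pore and in the cytoplasm. RLP24, a placeholder for ribosomal protein L24, was at 0.18, -0.19, -0.33, -0.57, -0.68, -1.94 and -2.002. REI1, a cytoplasmic factor needed to release ARX1, was at -0.03, -0.35, -0.31, -0.76, -0.83, -0.97 and -1.21. RLP24 dropped most after 15.5 h and REI1 moved in small steps. The fitted changes were -1.85 ± 0.24 for RLP24 (adjusted p = 0.00036) and -0.87 ± 0.21 for REI1 (adjusted p = 0.0081). In the late comparison REI1 gave -0.64 ± 0.23 (adjusted p = 0.0553). The REI1 gene overlaps SLM6, annotated on the opposite strand, by 453 bases, and whether its spot reports that transcript was not tested. TIF6, which keeps the subunits apart until the end, fell by 0.76 ± 0.19 (adjusted p = 0.0114), and the call was lost without the 18.5 h array (adjusted p = 0.0568).

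The 3 others of this group had blanks and were fitted over the arrays they had. ARX1, an export factor, lacked 20.5 h and was at 0.45, 0.27, 0.22, -0.83, -1.18 and -2.09, with a fitted change of -2.47 ± 0.29 (adjusted p = 0.000392). MRT4, a placeholder for the stalk protein P0, lacked 15.5 h and was at -0.11, -0.38, -0.24, -0.58, -2.29 and -2.33, with a fitted change of -2.16 ± 0.20 (adjusted p = 0.000186). NMD3, the export adaptor, lacked 11.5 h and 13.5 h and was at 0.16, 0.39, -0.39, -0.72 and -0.84, with a fitted change of -1.06 ± 0.22 (adjusted p = 0.00654). With NOC2 and NOP12, all 5 factors with a blank fell, and 44 of 50 fell in the fit that took them in. In that fit 18.4% of all 5456 genes fell.

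The other nucleolar factors all fell, 6 of 6, with a median of -1.60. NOP4, an RNA-binding protein, was at 0.29, 0.18, 0.32, -0.99, -0.99, -1.49 and -1.82. NOP16 was at 0.25, 0.20, -0.06, -0.76, -0.60, -1.93 and -1.31. NOP4 had the largest middle-minus-early difference of the 45 factors, while NOP16 was lowest at 18.5 h. The fitted changes were -1.89 ± 0.28 for NOP4 (adjusted p = 0.000709) and -1.70 ± 0.27 for NOP16 (adjusted p = 0.000957). NIP7, NSA2 and PUF6 fell by between 1.27 and 1.63. LOC1 fell by 0.87 ± 0.24 (adjusted p = 0.0153), which no longer passed with values as deposited (0.0532) or on leaving out the array of 9.5 h (0.0546) or of 20.5 h (0.0609).

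A list of 37 other 60S factors, such as the Rix1 complex and ribosomal protein chaperones, was taken as a second view of the pathway. Of 34 tested 23 fell, 0 rose and 11 did not pass, with a median fitted change of -0.99. Their medians by array were 0.12, 0.11, 0.12, -0.40, -0.50, -0.65 and -0.91 from 0 h to 20.5 h. The largest falls were those of RRB1, a chaperone of ribosomal protein L3, at -2.21 ± 0.29 (adjusted p = 0.000417), IPI3 of the Rix1 complex at -1.97 ± 0.27 (adjusted p = 0.000519), ALB1, a partner of ARX1, at -1.93 ± 0.24 (adjusted p = 0.000337) and RRP5, which acts in both subunits' pathways, at -1.93 ± 0.21 (adjusted p = 0.000193).

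The timing was set beside that of the proteins that the factors assemble. The 65 large-subunit ribosomal protein genes had medians of 0.23, 0.12, 0.07, -0.01, 0.02, -1.59 and -1.94 from 0 h to 20.5 h, so their middle arrays lay near the reference where those of the factors were -0.605 and -0.63. Both middle values lay below all early ones in 44 of 45 factors and in 16 of 57 ribosomal protein genes. The middle-minus-early median was -0.68 for the factors and -0.13 for the ribosomal protein genes, and the late-minus-middle median was -0.79 for the factors and -1.75 for the ribosomal protein genes. In the trend 39 of 45 factors and 56 of 57 ribosomal protein genes fell, and in the test of the middle arrays 13 of 45 factors and 0 of 57 ribosomal protein genes did. The 47 genes of the small-subunit processome, which cuts and folds the precursor of the other subunit, had middle medians of -0.57 and -0.67 and late medians of -1.29 and -1.34. Of its 40 tested genes 36 fell in the trend and 13 in the test of the middle arrays. Many ribosomal protein genes are A and B copies whose spots may share RNA, so counts of that list are uncertain as separate observations. The difference between lists was not tested.

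**Figure D4:**
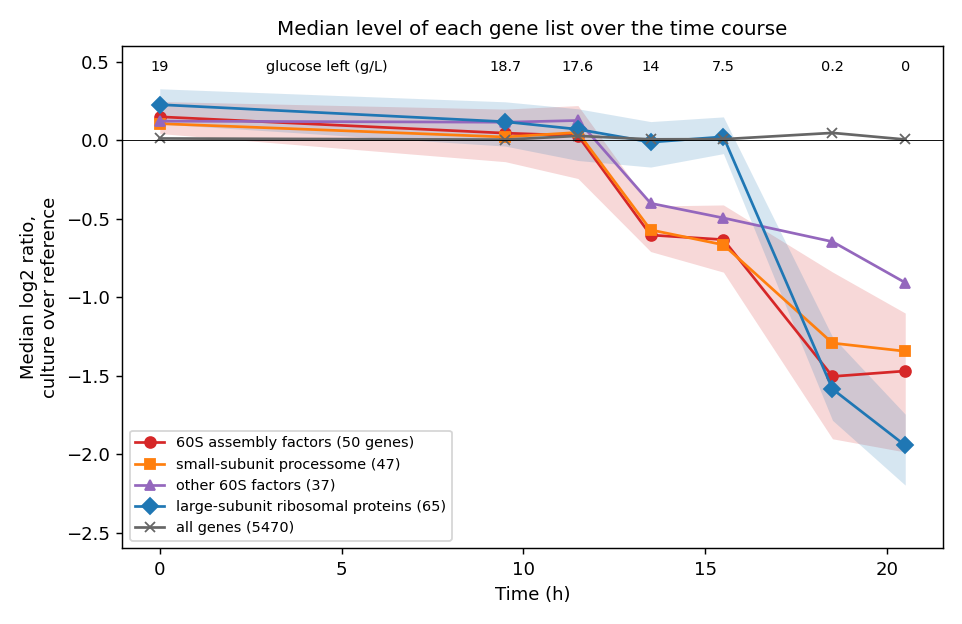
Median log2 ratio of culture over reference for each gene list at each time (h), with the glucose left (g/L) along the top; shaded bands are the middle 50% of genes for the assembly factors and for the large-subunit ribosomal proteins. The assembly factors and the small-subunit processome drop at 13.5 h, while the ribosomal proteins stay near 0 until 15.5 h and reach -1.59 at 18.5 h.

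Some factors resemble ribosomal proteins. On the middle arrays RLP7 was at -0.98 and -0.64, and its relative RPL7A at -0.59 and -0.58, the lowest ribosomal protein gene of the list at 15.5 h. RPL7B lacked 11.5 h and was at -0.46 and -0.35. RLP24 was at -0.57 and -0.68, RPL24A at 0.05 and 0.27, and RPL24B at -0.08 and 0.00. MRT4 was at -0.58 at 13.5 h, and RPP0 at 0.12. All 5 ribosomal protein genes fell over the course, with fitted changes between -2.59 and -1.46. Neighbours in RefSeq were taken as the next annotated gene on each side, RNA genes included. By that rule 3 factors lie next to another ribosome assembly gene of the lists, PWP1 beside NOP56, NMD3 beside DBP8 and NSA2 beside LCP5. Genes beyond such a neighbour were not counted, as for RRP15, which has a tRNA gene beside it. On the middle arrays PWP1 was at -0.69 and -0.85 and NOP56 at 0.13 and 0.10, and both fell over the course. NMD3 was at -0.39 at 15.5 h and DBP8 at -1.04, and both fell. NSA2 was at -0.44 at 15.5 h and LCP5, which lacked 13.5 h, at -0.82; NSA2 fell, and LCP5 had a fitted change of -0.30 ± 0.28 (adjusted p = 0.416).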

How the data were processed

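Per the labels, 7 arrays with 2 channels were scanned with ScanAlyze version 2.41. The deposited values are log2 ratios; the base was found from the values and is not stated, with background correction and normalization both not given in the sources used here. Each array was centred on its median, and spots of one gene were averaged. Of 6400 probes 5548 had 1 gene symbol and 852 had none. The 4807 of 5470 genes with no blank were fitted with limma 3.58.1 in R 4.3.3, with Benjamini-Hochberg adjustment over all of them; factors with a blank come from a fit of 5456 genes with at least 5 values. The arrays held 6048 to 6342 values, and 1 array per time limits the precision. The factors, role groups and comparison lists were chosen with earlier results of these data known. Values on every array are given for the 2 factors of each role group with the largest fitted change, for factors that did not pass and for those with a blank; of the other 60S factors, the 4 with the largest change are named. The test of the middle arrays was added after seeing the data. Symbols, synonyms (MDN1 as REA1, DBP4 as HCA4) and neighbours come from RefSeq. Promoter motifs were not analysed here. The fits were tested on simulated data with independent noise on each array, so dependence between neighbouring times was not tried. Alternatives were other centring, quantile normalization, covariates, thresholds and arrays left out.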

Additional observations from a re-analysis of the deposited data

How the results depend on the processing

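Quantile normalization between arrays, which gives every array the same spread, left 16 factors lower in the trend, 0 in the late comparison, 0 in the line before exhaustion and 0 in the test of the middle arrays (limma, adjusted p under 0.05); over all genes the shares were 7.86%, 3.02%, 0% and 0%. At an unadjusted p under 0.05 the counts of factors were 34, 13, 22 and 40, and the shares of all genes 15.9%, 12.2%, 7.36% and 9.78%. The cause was not tested. In the trend the calls lost after quantile normalization were those of NOP4, NOP16, NOG1, NOC3, RLP7, EBP2, BRX1, RPF1, RPF2, RRS1 and DBP6. Also lost were those of DBP9, SPB4, DRS1, ERB1, YTM1, CIC1, RRP14, RRP15, TIF6, REI1, MTR4 and LOC1. The smallest fitted changes among them were -0.22 for DBP6 (adjusted p = 0.742) and -0.25 for REI1 (adjusted p = 0.611). Leaving out 1 array at a time gave 37 to 39 factors lower in the trend, where 13.3% to 22.3% of all genes were. The late comparison gave 26 to 38 factors, where 15.1% to 20.8% of all genes were lower. Before exhaustion 0 to 6 factors were lower, where 0% to 1.19% of all genes were. The test of the middle arrays gave 0 to 30 factors, where 0% to 5.35% of all genes were lower. Of the 39 factors that fell in the trend 35 kept the call without each array in turn. The same share over all genes was not computed, so this count has no background. With hours as the covariate 31 factors and 4.85% of all genes fell, and with log2 of OD 37 factors and 10.7% of all genes. When the 0 h and 9.5 h arrays were dropped together 29 factors and 8.92% of all genes fell in the trend and 28 factors and 14.8% in the late comparison. With values as deposited 38 and 30 factors fell, where 14.7% and 14.2% of all genes did. In the trend all genes tested then split into 708 lower and 1223 higher, against 913 and 936 after centring. There the median gene moved to 0.20 from 0.02. Measured from the 0 h array, 10 factors and 1.27% of all genes were 2-fold lower at 13.5 h, and 13 factors and 2.68% at 15.5 h. The sign of the fitted change turned for NOP2 with the 18.5 h array left out (0.16), and for RRP1 as deposited (0.054), with the 11.5 h array left out (0.081), with that of 15.5 h left out (0.025) and with the first pair of arrays dropped (0.032), none of which passed. Leaving out 1 array, NOP2 ran from -2.07 to 0.16 and RRP1 from -0.55 to 0.081. No paired analysis was possible because each time point was 1 array.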
